A study of Mus musculus with 24 samples.

Results

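The genes described here are 10 cell-surface receptors and partners of the thrombospondins: Cacna2d1, Cacna2d2, Cacna2d3, Cd47, Sirpa, Lrp1, Itgb1, Itga3, Itgav and Itgb3. They were chosen by name, as proteins known to bind thrombospondins or to act with those that do. The choice was made by name, with earlier results of these data known. All 10 were among the 15232 genes of the deposited table, and all 10 were among the 12572 genes tested, which had a mean of at least 1 FPKM over the libraries. FPKM divides the fragments of a gene by its length and by the size of the library, so levels can be compared roughly between genes. It does not correct for GC content.

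Bulk poly(A) RNA was sequenced from the whole anterior cingulate cortex, a frontal cortical area used in weighing effort against reward, with 1 library per mouse from 24 mice. Animals labelled wild type (WT) or Thbs1/2 knockout (KO) were compared in a study of goal-directed behaviour. The 3 arms were untrained WT, untrained KO and trained KO, each with 8 animals, 4 female and 4 male. Untrained animals had no treatment per the labels. Trained animals had operant sessions with food restriction, so the effects of training and of food deprivation cannot be told apart. Strain, age and the design of the knockout alleles are not given in the sources used here. Trained WT animals are not analysed here. In whole tissue, fewer cells of a type and less RNA per cell cannot be told apart.

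Thrombospondins are large secreted matrix proteins, made in the cortex mainly by astrocytes, that promote the formation of excitatory synapses. They act through alpha2delta proteins, which are auxiliary subunits of voltage-gated calcium channels and the targets of gabapentin. They also bind CD47 and several integrins, and LRP1 takes them up from the matrix for degradation. CD47 in turn is the ligand of SIRP alpha, an inhibitory receptor on microglia and neurons.

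The RNA of the targeted genes, read first, did not match the genotype labels, being higher in libraries labelled KO. Every direction below is therefore between libraries labelled KO and libraries labelled WT. The reason was not tested, since the design of the knockout alleles is not given in the sources used here. Thbs1 averaged 0.512 FPKM in the libraries labelled WT, 3.68 in the untrained and 4.63 in the trained libraries labelled KO. Thbs2 averaged 2.02, 3.51 and 3.29 FPKM in the same order. Each gene differed between the untrained arms with a 2-sided exact permutation p of 0.0001554, the smallest the 12870 splits can give. Depth, recovered from the FPKM values, was 11864340 to 26272556 reads per library. All 8 trained animals had label numbers over 1000, against 2 untrained animals labelled KO and 1 labelled WT, all 3 of them male. Among females, label number and training therefore cannot be told apart. The labelled tissue showed its defining markers: 6 cortical excitatory neuron genes summed to 1197 to 1628 FPKM in 23 libraries. The remaining library, male untrained KO 3, summed to 807 FPKM for these genes. It also held 96.5 FPKM of 4 septal neuron markers, against 7.15 to 12.7 in the other 23, and the most reads of all libraries. Calls that it ends, and the larger shifts that it makes, are given with and without it.

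The promoters of the 4 members that were lower in trained KO than in untrained WT libraries are shown, because these genes moved the same way in that comparison. Each is the 250 bases before a RefSeq start (GRCm38.p6), read on the gene's strand. They lie at chr5:15934441-15934690 (+) for Cacna2d1, chr9:107399630-107399879 (+) for Cacna2d2, chr16:49855404-49855653 (+) for Cd47 and chr10:127621149-127621398 (-) for Lrp1. Capitals mark GGGCGG, the GC box, or its reverse complement CCGCCC, with overlapping matches counted.
Cacna2d1: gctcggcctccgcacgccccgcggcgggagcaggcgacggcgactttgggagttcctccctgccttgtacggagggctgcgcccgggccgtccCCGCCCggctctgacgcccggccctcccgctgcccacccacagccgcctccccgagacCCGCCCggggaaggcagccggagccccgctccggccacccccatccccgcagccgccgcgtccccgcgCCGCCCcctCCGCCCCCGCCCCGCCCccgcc
Cacna2d2: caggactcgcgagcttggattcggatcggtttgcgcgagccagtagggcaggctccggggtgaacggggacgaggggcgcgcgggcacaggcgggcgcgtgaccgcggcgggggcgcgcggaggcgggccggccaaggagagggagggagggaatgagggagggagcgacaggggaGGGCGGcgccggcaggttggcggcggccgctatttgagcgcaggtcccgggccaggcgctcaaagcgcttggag
Cd47: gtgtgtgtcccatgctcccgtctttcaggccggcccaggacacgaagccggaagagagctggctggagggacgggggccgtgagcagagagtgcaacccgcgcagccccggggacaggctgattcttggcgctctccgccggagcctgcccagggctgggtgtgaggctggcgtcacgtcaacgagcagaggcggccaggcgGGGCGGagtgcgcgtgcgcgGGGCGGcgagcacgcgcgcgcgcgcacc
Lrp1: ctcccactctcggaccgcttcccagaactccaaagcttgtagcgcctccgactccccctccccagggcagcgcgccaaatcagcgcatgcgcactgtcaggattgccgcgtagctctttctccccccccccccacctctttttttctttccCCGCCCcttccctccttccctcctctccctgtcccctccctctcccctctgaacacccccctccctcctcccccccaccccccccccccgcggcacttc
The GC box occurred 6 times before Cacna2d1, 2 times before Cd47 and 1 time each before Cacna2d2 and Lrp1. It occurs in 32.7% of 32851 RefSeq promoters of the same length. The promoters of Cacna2d1, Cacna2d2, Cd47 and Lrp1 had a GC content of 82.4%, 74.4%, 73.2% and 67.2%, against a median of 52.4% over all promoters. They held 36, 34, 30 and 13 CG dinucleotides, against a median of 6.0. The promoters of 8 members were in the table, and none of them held CACGTG (6.02% of all promoters) or TGACGTCA (1.55%). The motif TGANTCA (6.75%) was also not found in these 8. Members not called in that comparison held the GC box too, with 4 before Cacna2d3, 3 before Itga3 and 1 before Itgb1, and Itgav held 0. The promoters of Cacna2d3, Itga3, Itgb1 and Itgav had a GC content of 80.0%, 67.6%, 68.0% and 64.4%. They held 30, 22, 21 and 18 CG dinucleotides, and a second Itga3 entry had 50.8% and 5. Neither the GC box, GC content nor CG dinucleotides set the 4 apart. All matches are letters in these windows and say nothing of binding.

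Sirpa was the highest of the members, at 141 ± 11 FPKM (SD, n = 24), and lay above every other member in all 24 libraries. Lrp1 came next at 47.5 ± 5.31 FPKM. Cacna2d1 at 36.1 ± 5.03 FPKM and Cd47 at 35.6 ± 4.83 FPKM did not separate, with Cacna2d1 above Cd47 in 14 of 24 libraries. Cacna2d3 averaged 28.1 ± 2.38 FPKM, below Cd47 in all 24 libraries. Itgb1 at 16.6 ± 1.33 FPKM and Itgav at 16.3 ± 2.73 FPKM also did not separate, with Itgb1 above in 14 of 24. The low end held Cacna2d2 at 10.3 ± 9.06 (8.46 ± 0.826 without male untrained KO 3), Itga3 at 5.19 ± 0.663 and Itgb3 at 1.14 ± 0.238 FPKM. Itgb3, the partner that forms the classic RGD-binding vitronectin receptor with Itgav, rested on only 69 to 179 reads per library. Of the alpha2delta genes, Cacna2d1 made up a median of 49.4% of their summed FPKM, Cacna2d3 38.7% and Cacna2d2 11.8% in the 23 libraries other than male untrained KO 3.

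**Figure D1:**
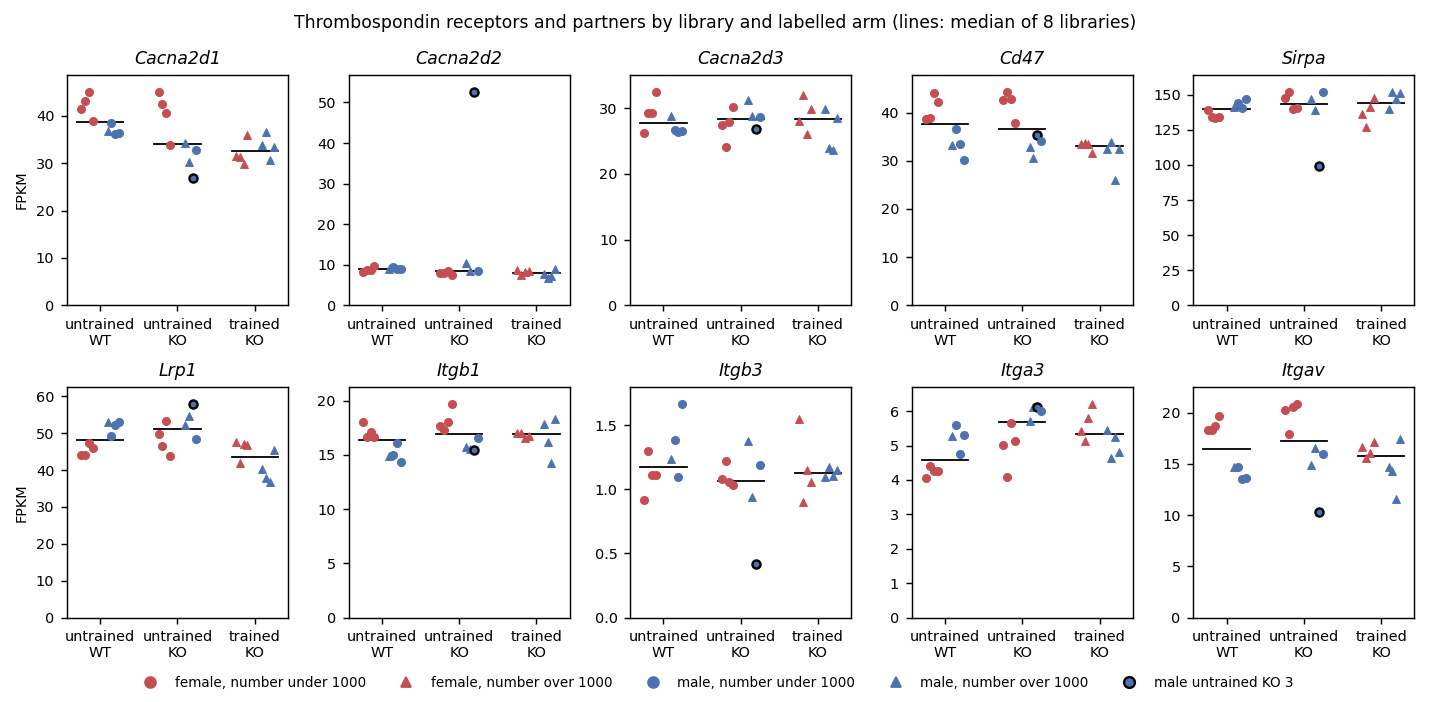
FPKM of the 10 members (y axes, from 0) in each of 24 libraries by labelled arm (x axis); points are libraries, coloured by sex, triangles are animals numbered over 1000, and lines are medians of 8. The outlined male untrained KO 3 stands at 52.7 FPKM of Cacna2d2, and the 4 untrained KO females lie above all trained KO libraries for Cd47.

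Between untrained KO and untrained WT libraries, no member passed the test. With limma on log2(FPKM + 1) and an adjusted p under 0.05 over all genes tested, 0 of 10 members were called, against 1.42% of all 12572 genes. At an unadjusted p under 0.05 there were 2 of 10, Itga3 and Cacna2d1, against 12.7% of all genes, and limma-voom on the recovered reads also called 0 members. The median member differed by 0.028 on the log2 scale, with -0.16 to 0.24 as the range, and the median over all genes was -0.0014.

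The alpha2delta genes lead the account of that comparison, since they are the synaptic receptors. Cacna2d1, whose product binds thrombospondins in synapse formation, was at a median of 38.8 FPKM (36.2 to 45.1) in untrained WT and 34.1 FPKM (26.9 to 45.0) in untrained KO libraries. The arms overlapped broadly, the lowest KO value being that of male untrained KO 3. The difference was -0.16 on the log2 scale (limma SE 0.0615, adjusted p = 0.279), and -0.12 without that library (adjusted p = 0.252). Among males alone, the 4 KO libraries stood at 34.3, 30.4, 26.9 and 32.7 FPKM and the 4 WT libraries at 36.8, 38.6, 36.2 and 36.5 FPKM. These male ranges did not overlap, as was the case for Itga3 as well, 2 of 10 members against 4.38% of all genes. Among females only Sirpa did not overlap, at 140 to 152 FPKM in KO and 134 to 139 FPKM in WT libraries, 1 of 10 against 7.09% of all genes.

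Cacna2d2, an alpha2delta subunit prominent in cerebellar Purkinje cells, was at 8.10 to 9.62 FPKM in the untrained WT arm and at 7.56 to 10.5 FPKM in 7 untrained KO libraries. The eighth of that arm, male untrained KO 3, was at 52.7 FPKM. The difference between the arms was 0.24 on the log2 scale (limma SE 0.274, adjusted p = 0.781) and -0.068 without this library (adjusted p = 0.527). Cacna2d3, the alpha2delta subunit best known from pain and hearing, was at 26.2 to 32.5 FPKM in untrained WT and 24.1 to 31.3 FPKM in untrained KO. Its arms overlapped almost entirely, with a difference of -0.0046 (95% interval -0.12 to 0.11), and of 0.0039 without male untrained KO 3.

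CD47 and its partner did not pass either. Cd47 was at a median of 37.7 FPKM (30.2 to 44.0) in untrained WT and 36.6 FPKM (30.5 to 44.3) in untrained KO libraries, a difference of 0.012 (95% interval -0.086 to 0.11). Sirpa was at 134 to 147 FPKM in the WT arm and 139 to 152 FPKM in 7 KO libraries, with 99.3 FPKM in male untrained KO 3. Its difference was -0.0066 with that library and 0.065 without it (limma adjusted p = 0.980 and 0.292). Lrp1, the endocytic receptor, was at 44.0 to 53.1 FPKM in the WT arm and 43.9 to 57.9 FPKM in the KO arm, a difference of 0.064 (95% interval -0.029 to 0.16).

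An integrin subunit, Itga3, gave the smallest unadjusted p of the members. Itga3, which pairs with Itgb1 as a laminin and thrombospondin receptor, was at a median of 4.58 FPKM (4.06 to 5.6) in untrained WT and 5.69 FPKM (4.10 to 6.13) in untrained KO. It lay above the WT mean in 7 of 8 KO libraries, and the difference was 0.17 (limma SE 0.05, adjusted p = 0.121). Leaving out female untrained KO 2, the lowest of its arm at 4.10 FPKM, gave 0.21 and an adjusted p of 0.0241. Of the 16 fits that left out 1 library, only this 1 called Itga3, which was not called with all libraries. Itgb1, the shared beta subunit, differed by 0.074, Itgav by 0.044 and Itgb3 by -0.14, with limma adjusted p of 0.402, 0.856 and 0.600. Leaving out male untrained KO 3 gave 0.11 for Itgav and -0.055 for Itgb3 (adjusted p = 0.150 and 0.729). The genotype difference by sex was not called for any of the 10 members (0.0% of all genes). At an unadjusted p under 0.05 there were also 0 members, against 3.13% of all genes.

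**Figure D2:**
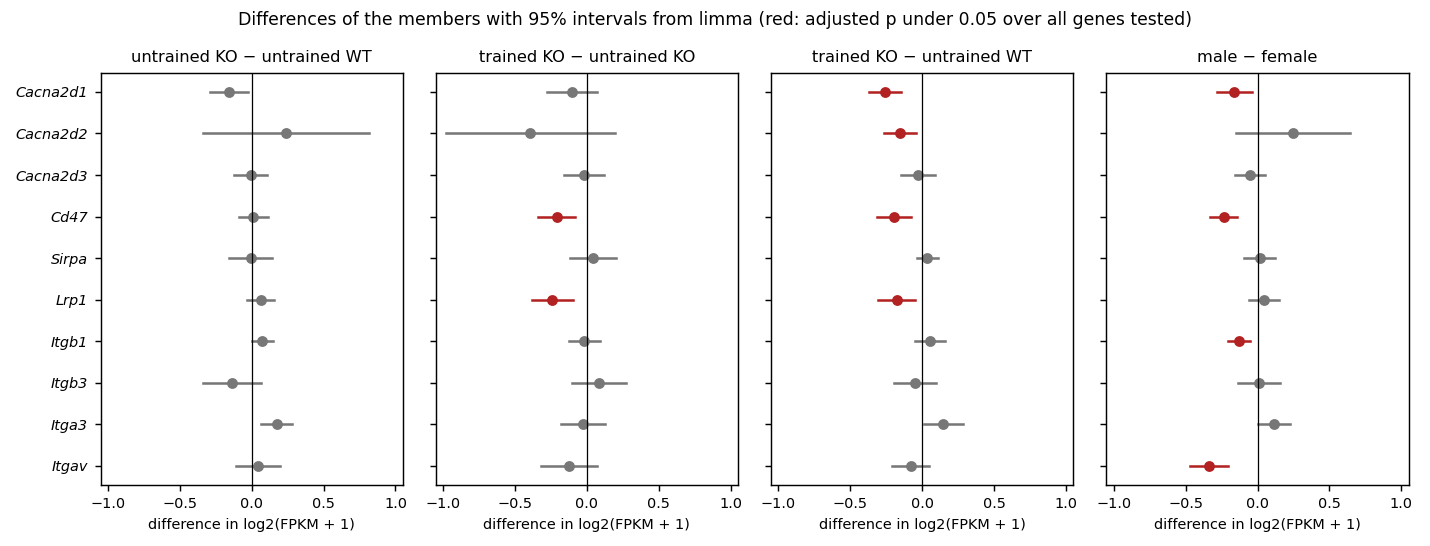
Difference in log2(FPKM + 1) of each member (x axis) in 4 comparisons, with 95% intervals from limma; red marks an adjusted p under 0.05 over all 12572 genes. No member is red between the untrained arms, 2 are red for trained against untrained KO, and 4 each for trained KO against untrained WT and for male against female, all to the left of 0.

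Between trained and untrained KO libraries, Cd47 and Lrp1 fell and the remaining 8 members did not pass. These 2 of 10 stood against 5.67% of all genes called, and 2.17% called lower. The median member differed by -0.066 on the log2 scale, with 8 of 10 lower, against 0.0065 over all genes. Without male untrained KO 3 both were lost, Cd47 at -0.21 (adjusted p = 0.0533) and Lrp1 at -0.21 (adjusted p = 0.0550).

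Cd47, the thrombospondin receptor that also marks cells as self to phagocytes, was at a median of 33.0 FPKM (26.0 to 33.8) in trained KO and 36.6 FPKM (30.5 to 44.3) in untrained KO libraries. It fell by 0.21 on the log2 scale (limma SE 0.0599, adjusted p = 0.0491), which is 13.6% of FPKM + 1. All 8 trained libraries lay below the untrained KO mean of 37.5 FPKM. Over all 16 fits that each left out 1 library, the call held in 4, those without male trained KO 1, 2 or 4 or male untrained KO 2, and was lost in the other 12.

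Within females the Cd47 values of the arms were apart. The 4 untrained KO females stood at 42.5, 44.3, 42.9 and 37.9 FPKM. The 4 trained KO females stood at 33.5, 33.7, 33.6 and 31.6 FPKM, all below them. The male libraries overlapped, at 32.8, 30.5, 35.3 and 34.0 FPKM untrained and 32.5, 33.8, 26.0 and 32.4 FPKM trained. The difference was -0.33 in females and -0.091 in males, and the test of their difference gave 0.24 (limma SE 0.106, adjusted p = 0.292). The 4 trained females lay within the range of the 12 males, 26.0 to 36.6 FPKM.

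Lrp1, which clears thrombospondins, apolipoprotein E and many proteases, was at a median of 43.7 FPKM (36.8 to 47.5) in trained KO and 51.0 FPKM (43.9 to 57.9) in untrained KO libraries. It fell by 0.24 on the log2 scale (limma SE 0.0673, adjusted p = 0.0456), which is 15.3% of FPKM + 1. All 8 trained libraries lay below the untrained KO mean of 50.9 FPKM. The call held in 3 of 16 fits that left out 1 library, those without male trained KO 4, female untrained KO 2 or female untrained KO 4, and was lost in the other 13.

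Within males the Lrp1 values of the arms were apart. The 4 untrained KO males stood at 52.3, 54.8, 57.9 and 48.4 FPKM. The 4 trained KO males stood at 40.2, 37.8, 36.8 and 45.4 FPKM, all below them. Females overlapped, at 49.7, 46.5, 53.4 and 43.9 FPKM untrained and 47.5, 42.0, 47.0 and 46.9 FPKM trained. The difference was -0.41 in males and -0.074 in females, and the test of their difference gave -0.33 (limma SE 0.11, adjusted p = 0.173). Astrocyte markers, 6 genes that include those of cells rich in Lrp1, summed to a median of 552 FPKM (466 to 653) in trained KO and 637 FPKM (544 to 726) in untrained KO libraries. None of these 6 genes was called in this comparison, and 1 of 4 mural cell markers was called lower. Their part in the Lrp1 result was not tested.

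Training and the label numbers run together, so both genes were also fitted with the numbers. With the range of the number as a covariate, the Cd47 difference was -0.062 and the Lrp1 difference -0.35 (limma adjusted p = 0.851 and 0.332). In males numbered over 1000, 4 trained against 2 untrained, Cd47 differed by -0.027 and Lrp1 by -0.41 (adjusted p = 0.939 and 0.349). The Lrp1 difference was larger than in the fit without the numbers and the Cd47 difference smaller, and neither passed the test. No untrained KO female was numbered over 1000, so both fits tell training from number only through males. In all males the training difference was -0.091 for Cd47 and -0.41 for Lrp1, and in females -0.33 and -0.074. The shifts therefore cannot be told apart from the difference between the sexes. No other animals allow a comparison within the numbers over 1000.

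**Figure D3:**
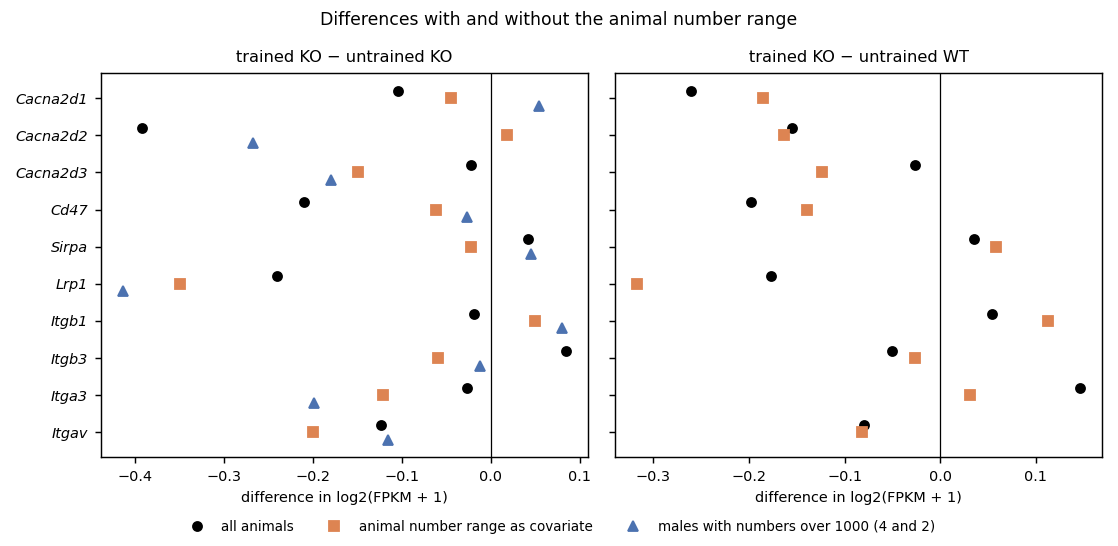
Difference in log2(FPKM + 1) of each member (x axis) between trained KO and untrained KO (left) and untrained WT (right); circles use all animals, squares add the label number range as a covariate, and triangles are 4 trained and 2 untrained males numbered over 1000. Lrp1 stays between -0.41 and -0.24 on the left, and Cd47 moves from -0.21 to -0.062 and -0.027. On both sides, only males tell arm from label number range.

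The other 8 members gave no call for training. Cacna2d1 differed by -0.10, Cacna2d3 by -0.022 and Cacna2d2 by -0.39, the last at -0.082 without male untrained KO 3. Sirpa, the receptor of CD47, differed by 0.041 (95% interval -0.12 to 0.20), and by -0.031 without that library. Itgav differed by -0.12, Itga3 by -0.027, Itgb1 by -0.02 and Itgb3 by 0.084. Without male untrained KO 3, Itgav differed by -0.20 (limma adjusted p = 0.0712), Itga3 by -0.0085, Itgb1 by -0.031 and Itgb3 by 0.01, and Cacna2d1 was at -0.15. Within females, Cd47, Itgb1 and Itgav had ranges that did not overlap, 3 of 10 members against 22.0% of all genes, and all 3 were lower in trained animals. Within males, Lrp1 and Itga3 did not overlap, 2 of 10 against 7.85% of all genes.

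The sign of the mean training difference was not the same in the sexes for 7 of 10 members, all but Cd47, Lrp1 and Itgb3. None passed the test over all genes, and the share of all genes with such signs was not counted. Without male untrained KO 3, Itgav was lower in both sexes, by -0.27 in females and -0.12 in males. Itgb3 then had unlike signs, at 0.037 in females and -0.021 in males. Itga3 and Cacna2d1, with the smallest p of the 7, are given in full. Itga3 was at 5.0, 4.10, 5.65 and 5.12 FPKM in untrained and 5.43, 5.14, 5.79 and 6.21 FPKM in trained KO females. In males it was at 5.73, 6.12, 6.13 and 5.99 FPKM untrained and 5.46, 4.63, 5.26 and 4.81 FPKM trained. The female mean was thus higher and the male mean lower in trained animals, with a difference by sex of -0.37 (limma SE 0.112, adjusted p = 0.137). Cacna2d1 went the opposite way, with -0.32 in females and 0.11 in males, a difference by sex of 0.44 (limma SE 0.130, adjusted p = 0.134). The male difference was 0.048 without male untrained KO 3, and the difference by sex 0.37 (adjusted p = 0.118). Over the members, limma called 0 of 10 for the difference by sex, against 0.00795% of all genes, and limma-voom also called 0. At an unadjusted p under 0.05 there were 4 of 10 (Cacna2d1, Itga3, Lrp1 and Cd47), against 15.5% of all genes.

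Trained KO libraries also differed from untrained WT libraries, a comparison that joins both labels and shares its trained arm with the one above. Here 4 of 10 members fell and none rose: Cacna2d1, Cd47, Cacna2d2 and Lrp1. All genes gave 24.5% called and 11.5% called lower. The median member differed by -0.065 on the log2 scale, against 0.0032 over all genes. None of these calls held with the label number range as a covariate, but that fit cannot decide them. All 8 trained animals and only 1 untrained WT animal had numbers over 1000, so only that 1 male tells arm from number.

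Cacna2d1 gave the smallest p. It was at a median of 32.5 FPKM (29.8 to 36.6) in trained KO and 38.8 FPKM (36.2 to 45.1) in untrained WT libraries, so only the edges of the arms met. It fell by 0.26 on the log2 scale (limma SE 0.0533, adjusted p = 0.00229), or 16.5% of FPKM + 1. All 8 trained libraries lay below the WT mean of 39.6 FPKM, and the call held in all 16 fits that left out 1 library. With the label number as a covariate it was -0.19 (adjusted p = 0.639).

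Cd47 fell by 0.20 (limma SE 0.0568, adjusted p = 0.0172) from a median of 37.7 FPKM in untrained WT to 33.0 FPKM in trained KO libraries. Its call too held in all 16 fits that left out 1 library. The 4 untrained WT females stood at 38.7, 38.9, 44.0 and 42.2 FPKM, all above the 4 trained KO females. The 4 untrained WT males, at 33.2, 36.6, 33.5 and 30.2 FPKM, overlapped with the trained KO males. With the label number as a covariate Cd47 differed by -0.14 (adjusted p = 0.757), and without sex as a covariate the call was lost (adjusted p = 0.0549).

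Lrp1 fell by 0.18 (limma SE 0.0618, adjusted p = 0.0442), from a median of 48.2 FPKM (44.0 to 53.1) to 43.7 FPKM (36.8 to 47.5). The 4 untrained WT males stood at 53.1, 49.2, 52.1 and 53.0 FPKM, all above the 4 trained KO males, and females overlapped. The call was lost in 9 of 16 fits that left out 1 library. It held without female trained KO 1, 3 or 4, male trained KO 4, or female untrained WT 1, 2 or 4. With the label number as a covariate Lrp1 differed by -0.32 (adjusted p = 0.449). In this comparison 1 of 6 astrocyte, 2 of 4 mural, 3 of 6 microglial and 2 of 2 oligodendrocyte precursor markers were called lower. Called higher were 1 of 6 microglial, 2 of 6 cortical excitatory neuron, 2 of 6 inhibitory neuron and 1 of 4 meningeal fibroblast markers. Over all genes 24.5% were called and 11.5% called lower. Astrocyte markers summed to 557 to 674 FPKM in untrained WT and 466 to 653 FPKM in trained KO libraries, mural markers to 24.5 to 29.4 and 20.7 to 30.6 FPKM, and microglial markers to 139 to 162 and 130 to 145 FPKM. No marker of these lists was at 0 in every library, and their part in the results was not tested.

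Cacna2d2 fell by 0.16 (limma SE 0.0529, adjusted p = 0.0393), from a median of 8.94 FPKM (8.10 to 9.62) to 7.99 FPKM (6.84 to 8.96). This comparison does not contain male untrained KO 3. The call was lost in 10 of 16 fits that left out 1 library, and held without female trained KO 1, 3 or 4, male trained KO 4, or female untrained WT 1 or 2. With the label number as a covariate the difference was -0.16 (adjusted p = 0.695). With all 24 libraries in 1 fit, which brings in male untrained KO 3, the adjusted p was 0.684. Cacna2d3 did not pass, at -0.027, so of the alpha2delta genes only Cacna2d1 and Cacna2d2 were called here.

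The integrins and Sirpa gave no call. Itga3 differed by 0.15 (limma adjusted p = 0.108), Itgav by -0.08, Itgb1 by 0.054, Itgb3 by -0.051 and Sirpa by 0.035. Over the whole arms, 0 of 10 members had ranges that did not overlap, here (3.11% of all genes), for training (0.962%) and between the untrained arms (0.501%). Within females, Cacna2d1, Cd47, Itga3 and Itgav did not overlap between the arms, 4 of 10 against 27.2% of all genes. Itga3 was the only one of these higher in trained KO females, at 5.14 to 6.21 FPKM, against 4.06 to 4.41 FPKM in untrained WT females. Within males only Lrp1 did not overlap, 1 of 10 against 11.7% of all genes.

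Over the 3 arms together, the sexes differed in 4 members, all lower in males: Itgav, Cd47, Itgb1 and Cacna2d1. The gap was not alike in each arm. Sex was balanced in every arm and all 24 libraries entered this fit. Over all genes 28.6% were called and 13.8% called lower in males, so the members stood against a large background, and the ranges of the sexes overlapped for all 10 (0.111% of all genes did not). The median member differed by -0.022, against 0.011 over all genes. Without male untrained KO 3 the count was 3, as Cacna2d1 was lost.

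Itgav, the subunit of the vitronectin-type integrins, was at a median of 18.3 FPKM (15.6 to 20.8) in 12 females and 14.7 FPKM (10.3 to 17.5) in 12 males. All 12 males lay below the female mean. It fell by 0.34 on the log2 scale in males (limma SE 0.0642, adjusted p = 0.000781), and by 0.29 without male untrained KO 3 (adjusted p = 0.000361). By arm, WT females were at 18.3 to 19.7 and WT males at 13.5 to 14.7 FPKM. The ranges overlapped in the trained arm, with trained females at 15.6 to 17.2 and trained males at 11.6 to 17.5 FPKM.

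Cd47 was at a median of 38.8 FPKM (31.6 to 44.3) in females and 33.0 FPKM (26.0 to 36.6) in males, and all 12 males lay below the female mean. It was lower in males by the difference -0.24 (limma SE 0.0461, adjusted p = 0.000940). Itgb1 was at 17.1 FPKM (16.5 to 19.7) in females and 15.6 FPKM (14.2 to 18.3) in males, a difference of -0.13 (SE 0.0372, adjusted p = 0.0126). These calls and that of Itgav held in all 24 fits that left out 1 library. By arm, mean Cd47 in females and males was 41.0 and 33.4 FPKM in untrained WT and 41.9 and 33.2 FPKM in untrained KO. In trained KO it was 33.1 and 31.2 FPKM. Mean Itgb1 was 17.1 and 15.1, 18.2 and 15.8, and 16.8 and 16.6 FPKM in the same order of arms.

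Cacna2d1 was at 39.8 FPKM (29.8 to 45.1) in females and 34.1 FPKM (26.9 to 38.6) in males, a difference of -0.16 (limma SE 0.0580, adjusted p = 0.0389). It was at -0.13 (adjusted p = 0.0553) without male untrained KO 3. By arm, mean Cacna2d1 in females and males was 42.2 and 37.0 FPKM in untrained WT and 40.5 and 31.1 FPKM in untrained KO. In trained KO it was 32.1 and 33.6 FPKM, so the male mean was not lower there. The call was lost in 13 of 24 fits that left out 1 library, and held without male untrained KO 1, female trained KO 1, 2 or 3, male trained KO 1, 2 or 4, male untrained WT 2, female untrained WT 1 or 4, or female untrained KO 4. Itga3 differed by 0.11 (adjusted p = 0.114), and by 0.14 (adjusted p = 0.0473) without female trained KO 4, its highest library at 6.21 FPKM.

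The 4 members that differed by sex were those lowest in GC content. Their transcripts had a GC content of 40.7% (Cacna2d1), 42.2% (Cd47), 43.5% (Itgav) and 44.8% (Itgb1), against a median of 49.8% over the tested genes. The other 6 members lay between 49.1% (Cacna2d3) and 57.9% (Itga3 and Lrp1). After a correction for GC content and transcript length within each library, Itgav kept its call at -0.20 (limma adjusted p = 0.0400). Cd47 was then at -0.11 (adjusted p = 0.0650), Itgb1 at -0.058 (adjusted p = 0.309) and Cacna2d1 at 0.026 (adjusted p = 0.810). The correction takes out any shift shared by genes of like GC content or length, whatever its source. The part of GC content in the sex differences was not tested. The same correction left both training calls and all 4 calls of trained KO against untrained WT past the threshold, mostly with smaller differences. For training, Cd47 went from -0.21 to -0.16 and Lrp1 from -0.24 to -0.18. Against untrained WT, Cacna2d1 went from -0.26 to -0.17, Cd47 from -0.20 to -0.14 and Lrp1 from -0.18 to -0.13. Cacna2d2 went from -0.16 to -0.17.

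Male untrained KO 3 departed from its arm in more than Cacna2d2. Cacna2d2 made up 49.5% of the summed alpha2delta FPKM there, against 9.80% to 13.8% in the other 23 libraries. Sirpa, at 99.3 FPKM, was below the 127 to 152 FPKM of the others, and Itgb3, at 0.415 FPKM, below their 0.903 to 1.67 FPKM. Itgav and Cacna2d1 were also at their lowest of all 24 libraries, at 10.3 and 26.9 FPKM, while Lrp1 was at its highest, at 57.9 FPKM. Striatal markers summed to 335 FPKM, against 47.3 to 226 in the others. Zic1, a transcription factor of the septum, was at 52.0 FPKM, against 1.46 to 2.70. The part of these markers in the member values was not tested.

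**Figure D4:**
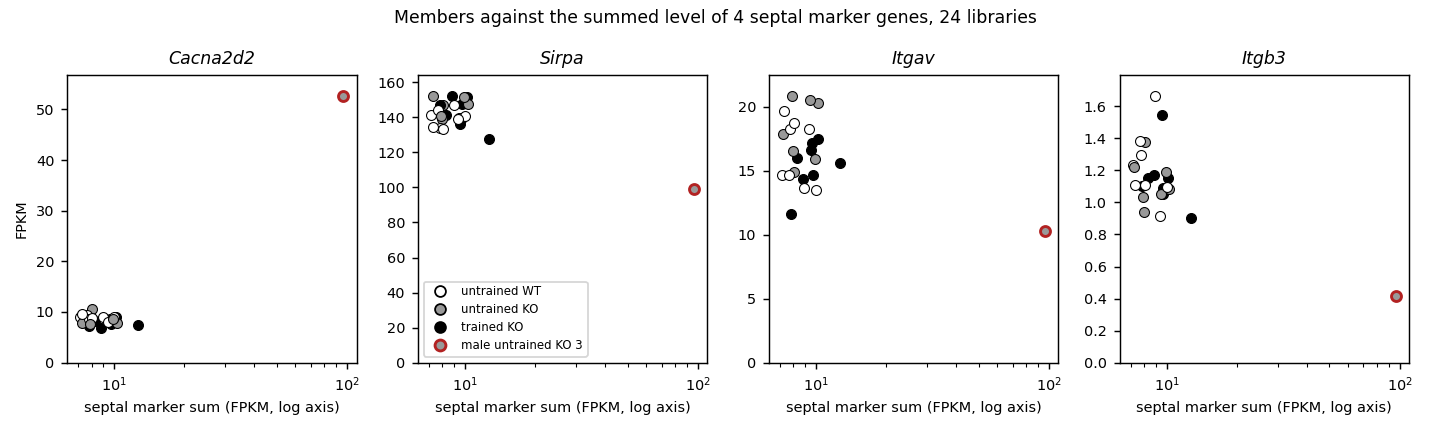
FPKM of 4 members (y axes, from 0) against the summed FPKM of 4 septal markers (x axis, log scale) in 24 libraries, filled by arm. The red-outlined male untrained KO 3, at a sum of 96.5 FPKM, is high for Cacna2d2 and low for Sirpa, Itgav and Itgb3, and the other 23 lie between 7.15 and 12.7 FPKM.

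The genes whose pattern was most like a member's were found by Pearson correlation over the 24 libraries, after the mean of each arm and sex was subtracted. The values are descriptions, since libraries share depth and tissue. Cd47 was most like Ddx6 (r = 0.87), Taok1 (0.85) and Zfp551 (0.84), and Lrp1 was most like Adgrf5 (0.81), Macf1 (0.80) and Tns1 (0.79). Cacna2d1 was most like Gria3 (0.87), Sorbs2 (0.86) and Pgm2l1 (0.84), Itgb1 like Zfp748 (0.86), Pdpr (0.83) and Dock1 (0.81), and Itgav like Rora (0.95), Kcna2 (0.95) and Cdh12 (0.94). For these members the values without male untrained KO 3 were 0.77 to 0.90. Cacna2d2 was most like Peg10, Arhgap6 and Pld5, at 0.98, 0.98 and 0.97, which became 0.52, 0.47 and 0.74 without that library.

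The wider pathway was read from lists of related genes. The list counts stand beside 1.42% of all genes called between the untrained arms. For training they stand beside 5.67% of all genes called and 2.17% called lower. Of 4 other thrombospondins tested, Thbs1 and Thbs2 were called higher in untrained KO than in untrained WT libraries, and no gene of the other lists was called there. For training, Thbs4, a thrombospondin of muscle, tendon and brain, rose by 0.59 (limma SE 0.154, adjusted p = 0.0355). Of 7 other thrombospondin-binding proteins, Calr, a chaperone that joins LRP1 at the cell surface, rose by 0.40 (adjusted p = 0.000528), and Nlgn1, a postsynaptic adhesion protein, fell by 0.27 (adjusted p = 0.00850). Of 15 relatives and ligands of LRP1, 1 rose (Calr, which is in both lists) and 1 fell. None of 13 calcium channel subunits, 9 other integrin subunits, 14 adhesion complex genes or 6 CD47 and SIRP alpha signalling genes was called for training. Without male untrained KO 3, Thbs4, Calr and Nlgn1 still passed, and Thbs1 went from 0.28 (adjusted p = 0.111) to 0.33 (adjusted p = 0.0427).

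Between trained KO and untrained WT libraries the list counts stand beside 24.5% of all genes called and 11.5% called lower. Of 13 calcium channel subunits, 5 fell and 1 rose, and the pore-forming Cacna1e fell by 0.31, Cacna1d by 0.23, Cacna1b by 0.21 and the beta subunit Cacnb4 by 0.23 (limma adjusted p = 0.00241, 0.00481, 0.00692 and 0.0107). Of 15 relatives and ligands of LRP1, 3 rose and 3 fell, with Lrp1b falling by 0.37 and Vldlr by 0.18, and Calr rising by 0.36. Of 9 other integrin subunits, Itgb5 rose by 0.16 and Itgb8 fell by 0.38. Of 14 adhesion complex genes, Ilk, a scaffold on the integrin tail, rose by 0.13 and Tln2, an integrin activator, fell by 0.13. Thbs3 fell by 0.29, and none of 6 CD47 and SIRP alpha signalling genes was called.

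By sex, the list counts stand beside 28.6% of all genes called and 13.8% called lower in males. There, 2 of 9 other integrin subunits were higher in males (Itgb5 by 0.17 and Itgb4 by 0.19), and Itgb8 fell by 0.26. Of 14 adhesion complex genes, Ilk and Src were higher in males, and Lims1 and Fermt2 fell by 0.26 and 0.20. Of 15 relatives and ligands of LRP1, 4 were higher and 3 lower in males, with Lrp6 falling by 0.19, Lrp1b by 0.28 and Lrpap1 and Lrp10 higher by 0.17 and 0.18. Of 13 calcium channel subunits, Cacnb4 fell by 0.30 in males (limma adjusted p = 0.00118). Among other thrombospondin-binding proteins, Nlgn1 fell by 0.19 and Notch3 was higher by 0.14, and Ubqln2 of the CD47 list was higher by 0.11. Without male untrained KO 3, Notch3 and Ubqln2 no longer passed, and Vldlr and Cacna1e did, at -0.17 and -0.18 (adjusted p = 0.00373 and 0.0165).

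By position (GRCm38), Itgav and Sirpa lie on chromosome 2, as does Thbs1, at 34.4 and 11.5 megabases from it. The targeted Thbs1 lies at chr2:118111876-118127133, Itgav at chr2:83724397-83806916 and Sirpa at chr2:129592835-129632228. Neither Itgav nor Sirpa was called between the untrained arms. Cacna2d1 lies at chr5:15934691-16374511, Cd47 at chr16:49800533-49915010 and Lrp1 at chr10:127538161-127621148. Cd47, Itgb1, Itga3, Itgb3 and Sirpa overlap no other annotated gene.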

How the data were processed

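Per the labels' protocols, libraries were made with a stranded mRNA kit. The authors deposited FPKM values per gene, under column names that end in a word for counts. Per the submitters' processing notes, FastQC 0.11.7, Trimmomatic 0.38, STAR 2.5.3a, featureCounts and Subread 1.6.3 were used with mm10; the annotation, gene filter and FPKM program are not given in the sources used here. Columns were matched to samples by animal number.

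Within a gene, FPKM values were whole multiples of what 1 read is worth. Whole reads were recovered for 15211 of 15232 genes (100.0% of values whole within 0.01 read). They cover counting error only. They gave 11864340 to 26272556 reads per library.

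The fits used limma 3.58.1 (R 4.3.3, trend) on log2(FPKM + 1) for the 12572 genes whose mean reached 1 FPKM. P-values were adjusted by Benjamini-Hochberg, with 0.05 as the threshold. Only the arms compared entered, with sex as covariate; sex was fitted over 24 libraries with arm as covariate. This scale understates the change of low genes. Both steps were tested on simulated data. Tables were made in Python 3.11.15 with scipy 1.17.1, pandas 2.3.3 and numpy 2.4.6. Positions and GC content came from GENCODE M21 and promoters from RefSeq GRCm38.p6.

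The members and lists were chosen with earlier results of these data known. All 10 members are named. Of each list, called genes are named, at most 4 per comparison by adjusted p; some results are counted but not reported here by name. For members called in any comparison, the 3 genes most alike are named. Alternatives were a pseudocount of 0.1, no filter, median-ratio scaling, equal FPKM sums, limma-voom, a fit of all libraries, a fit without sex, a replicate block, the animal number range, GC and length correction, and each library left out. Nothing in the labels says that libraries are other than separate animals.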

Additional observations from a re-analysis of the deposited data

Results flagged for a closer look

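In each arm the highest or lowest library was set against the others, for 10 members in 3 arms. Of these 30 sets of 8 libraries, 5 had an end value whose gap to the nearest other library exceeded 0.526 of the whole range, where chance gives about 1.5. The members share libraries and each arm holds both sexes, so the 30 sets are not independent and 5 against 1.5 is no test. The library male untrained KO 3 gave 3 of the 5 flagged sets. There, Cacna2d2 was at 52.7 FPKM (others 7.56 to 10.5), Sirpa at 99.3 FPKM (others 139 to 152) and Itgb3 at 0.415 FPKM (others 0.942 to 1.38). Cd47 was at 26.0 FPKM in male trained KO 3, where the other trained libraries lay between 31.6 and 33.8 FPKM. Itgb3 was at 1.54 FPKM in female trained KO 1, where the others lay between 0.903 and 1.17 FPKM.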

How the results depend on the processing

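Without an alternative, 1.42% of all genes were called between the untrained arms and 5.67% for training. For trained KO against untrained WT it was 24.5%, and by sex 28.6%. The shares under the alternatives are not given here, so a moved count is not a result about the members alone. The members called between the untrained arms numbered 0 to 1 with each library left out and 0 under all other alternatives run. For training the count was 2, and 0 with no filter, without the sex covariate, with the label number range as covariate and in males numbered over 1000. It was 1 with median-ratio scaling and 0 to 2 with each library left out. For trained KO against untrained WT it was 4, 0 with the label number range as covariate, 3 with all libraries in 1 fit, 3 without the sex covariate and 2 to 4 with each library left out. By sex it was 4, 1 with GC and length correction, 3 with the label number range as covariate, 6 in animals numbered under 1000 (Lrp1 and Itga3 gained, adjusted p = 0.0497 and 0.0137) and 3 to 4 with each library left out. Both interactions stayed at 0. The fit by sex of animals numbered under 1000 holds no trained animals. In trained KO libraries, mean Lrp1 was 45.8 FPKM in females and 40.1 FPKM in males, and mean Itga3 5.64 and 5.04 FPKM. In untrained WT libraries these means were 45.3 and 51.9 FPKM, and 4.25 and 5.23 FPKM. In untrained KO libraries they were 48.4 and 53.4 FPKM, and 4.97 and 5.99 FPKM.

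The replicate numbers in the titles name different animals. Same-numbered libraries deviated together little, with mean correlations of 0.0247, -0.0701 and -0.102 in the 3 comparisons of arms. With a replicate block, 0 members were called for training and 1 for trained KO against untrained WT.

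Some members changed sign. For training, the label number covariate gave Cacna2d2 0.0186, Itgb1 0.0497, Itgb3 -0.0599 and Sirpa -0.0219. Males numbered over 1000 gave Cacna2d1 0.0542, Itgb1 0.0797 and Itgb3 -0.0121, and the block gave Itgb1 0.0092. For trained KO against untrained WT, equal FPKM sums gave Sirpa -0.0075. By sex, equal FPKM sums gave Lrp1 -0.0021, Itgb3 -0.018 and Sirpa -0.032. The GC and length correction gave Cacna2d1, which is called without it, 0.0265, Lrp1 -0.0069, Itgb3 -0.0177 and Sirpa -0.0678. Animals numbered under 1000 gave Itgb3 -0.0142 and Sirpa -0.0539, a pseudocount of 0.1 gave Itgb3 -0.0046, limma-voom gave Itgb3 -0.0738, and the label number covariate gave Itgb3 -0.013. The cause of these changes was not tested.

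With each library left out, the untrained arms differed by -0.0684 to 0.317 for Cacna2d2, -0.0288 to 0.0292 for Cacna2d3, -0.0069 to 0.0343 for Cd47 and -0.0285 to 0.065 for Sirpa. The training difference was -0.0571 to 0.0086 for Cacna2d3, -0.0466 to 0.0054 for Itgb1, -0.0755 to 0.0024 for Itga3 and -0.0307 to 0.0677 for Sirpa. By sex Itgb3 ranged from -0.017 to 0.0609. Itgb3, with 69 to 179 reads, is the member that depth limits most.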
